A study of Rattus norvegicus with 18 samples.

Results

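Interferon response genes were followed in left hippocampus RNA of adult male rats, strain Sprague-Dawley, with temporal lobe epilepsy induced in 2 ways. The genes were chosen by symbol: the numbered Irf, Stat, Gbp, Oas and Isg genes, the Ifit, Ifitm, Ifi and Oasl-type genes, and Mx1, Mx2, Bst2, Usp18, Rsad2, Ddx58, Dhx58, Zbp1, Eif2ak2, Parp9, Parp14 and Dtx3l. Of the 17455 gene symbols listed, 60 matched and 56 of these reached at least 10 counts in at least 3 libraries. Oas1d, Oas1e, Oas1h and Stat4 stayed under that minimum. All 56 genes kept were also expressed highly enough to be tested, so none was lost to the filter on low counts. Neither the symbols nor the minimum uses a comparison between groups. The symbols also bring in 3 genes that are alike in name only, Irf2bp1, Irf2bpl and Isg20l2, and they are described separately.

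Interferons are secreted proteins that cells release on sensing foreign or misplaced nucleic acid. They bind receptors that switch on JAK kinases and STAT transcription factors, and a complex of STAT proteins with IRF9 binds interferon-stimulated response elements in the promoters of antiviral genes. STAT dimers, formed mainly after interferon gamma, bind a second kind of element, the gamma-activated site. In the brain, microglia, endothelial cells and infiltrating leukocytes respond strongly, and neurons and astrocytes can respond too.

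KA 3 Class V (n = 3) was set against KA sham (n = 7), and KI 3 Class V (n = 4) against KI sham (n = 4). In the KA model rats had electrodes implanted and then received rising systemic doses of kainic acid, a glutamate receptor agonist that induces status epilepticus. For kindling (KI), electrodes were placed in the hippocampus and stimulated repeatedly until the animals were fully kindled. What the shams received is not described further. Tissue was taken a day after the last seizure, and the label 3 Class V is not explained further in the sources used here. The labels do not tie each library to an animal of its own, so the spread behind the p-values could be technical in part. Library totals ran from 37172455 to 49943021 in KA 3 Class V, 32150130 to 42619628 in KA sham, 36117956 to 41195373 in KI 3 Class V and 30925368 to 38850420 in KI sham.

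The sequences shown next are the 250 bases before the start of 6 of the genes, because each carries the letters of 1 or both of the elements named above and its gene is described with values below. Irf7, Ifit3 and Oas1a were called in neither model, and Bst2, Irf8 and Ifi47 were called in KI. The sequences come from RefSeq for the rat assembly GRCr8, read 5′ to 3′ on the strand of the gene. Capitals mark every match, on either strand, to the word GAAA followed after any 2 bases (NN) by GAAA again, the core of an interferon-stimulated response element, or to TTCNNNGAA, the core of a gamma-activated site, which reads the same on both strands. The search covered 250 bases before and 50 after each start, and overlapping matches run together. Irf7 lies on the minus strand at chr1:205800024-205800273, Ifit3 on the plus strand at chr1:241527076-241527325, Oas1a on the plus strand at chr12:41330216-41330465, Bst2 on the minus strand at chr16:18254968-18255217, Irf8 on the plus strand at chr19:65699034-65699283 and Ifi47 on the plus strand at chr10:33798494-33798743.
Irf7: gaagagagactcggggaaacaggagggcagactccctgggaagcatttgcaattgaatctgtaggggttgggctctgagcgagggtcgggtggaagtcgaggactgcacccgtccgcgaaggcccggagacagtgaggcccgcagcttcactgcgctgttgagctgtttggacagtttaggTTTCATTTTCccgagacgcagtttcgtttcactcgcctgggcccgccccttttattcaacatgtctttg
Ifit3: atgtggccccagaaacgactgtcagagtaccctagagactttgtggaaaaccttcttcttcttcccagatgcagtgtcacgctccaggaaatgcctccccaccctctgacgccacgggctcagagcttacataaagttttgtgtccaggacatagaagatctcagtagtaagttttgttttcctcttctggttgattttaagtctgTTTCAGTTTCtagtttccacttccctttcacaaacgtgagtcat
Oas1a: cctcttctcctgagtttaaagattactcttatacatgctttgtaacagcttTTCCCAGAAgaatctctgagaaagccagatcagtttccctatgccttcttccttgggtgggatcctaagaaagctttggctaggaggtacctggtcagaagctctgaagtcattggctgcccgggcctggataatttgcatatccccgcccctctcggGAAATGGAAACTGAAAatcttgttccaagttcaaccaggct
Bst2: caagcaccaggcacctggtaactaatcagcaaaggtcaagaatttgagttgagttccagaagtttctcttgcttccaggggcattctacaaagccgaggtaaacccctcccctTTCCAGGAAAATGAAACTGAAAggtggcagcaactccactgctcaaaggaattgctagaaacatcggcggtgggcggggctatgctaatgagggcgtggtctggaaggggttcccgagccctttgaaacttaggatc
Irf8: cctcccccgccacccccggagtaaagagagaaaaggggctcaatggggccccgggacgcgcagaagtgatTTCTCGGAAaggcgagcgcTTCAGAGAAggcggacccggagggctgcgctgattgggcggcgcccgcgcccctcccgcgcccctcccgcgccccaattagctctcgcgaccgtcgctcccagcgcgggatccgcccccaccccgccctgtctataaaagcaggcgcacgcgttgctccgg
Ifi47: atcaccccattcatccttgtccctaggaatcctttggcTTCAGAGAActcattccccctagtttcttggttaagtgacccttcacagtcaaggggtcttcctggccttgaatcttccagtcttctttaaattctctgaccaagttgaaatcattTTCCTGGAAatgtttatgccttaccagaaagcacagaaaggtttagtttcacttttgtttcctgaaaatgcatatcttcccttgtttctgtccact

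In the Irf7 and Ifit3 sequences the response element letters stand on the reverse strand, with their first base 69 and 44 bases before the start. Oas1a and Bst2 each hold a pair of overlapping response element matches, starting 41 and 35 bases before the start in Oas1a and 131 and 125 bases before it in Bst2, where a TTCNNNGAA match overlaps the first. Irf8 and Ifi47 hold no response element letters in the window and 2 TTCNNNGAA matches each. A match is a description of letters, not evidence that a factor binds there. Of the 56 genes, 41 had a promoter window in the table and 15 did not. The response element letters occurred in 21 of the 41 (51.2%), against 3.92% of all 33469 rat windows. TTCNNNGAA occurred in 10 of the 41 (24.4%), against 8.87% of all windows, and 5 genes held both.

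In the kindling model 13 of the 56 genes were called lower in KI 3 Class V than in KI sham, and the size of the difference over the 56 depended on 1 sham library, KI sham 3. Levels are given as CPM, counts scaled to a common library size, and a negative fold change means a lower level in 3 Class V. With all libraries, those 13 fell and 0 rose at an adjusted p under 0.05 in edgeR's quasi-likelihood test, where 5.25% of all genes tested fell and 4.74% rose. The genes that fell were Zbp1, Ifitm1, Isg15, Ifi47, Irf8, Ifi30, Isg20, Bst2, Ifitm2, Ifi35, Ifitm3, Ifi27 and Irf5. In the counts of genes below too, fell and rose mean past that adjusted threshold. The median log2 fold change over the 56 genes was -1.08, beside -0.04 over all genes, and 51 of the 56 changes were negative. At an unadjusted p under 0.05, 35 of the 56 genes were lower and 0 higher. Of the 13338 genes tested, 2434 were lower and 2294 higher at that line, 35.4% in either direction. Without KI sham 3, 0 of 56 passed the adjusted threshold (0.631% of all genes were then called lower and 0.368% higher). The unadjusted one was passed by 11 of the 56, all lower. Of the 13310 genes then tested, 1984 were lower and 2023 higher at that line, 30.1% in either direction. The median over the 56 was then -0.31, with 45 changes still negative. Leaving out KI 3 Class V 1, 2 or 3 also gave 0 called and leaving out KI 3 Class V 4 gave 2, with medians of -1.0, -1.30, -1.04 and -1.06. The count was 29 without KI sham 4, 20 without KI sham 1, 20 without KA sham 2, 6 without KI sham 2 or KA sham 3, and 8 without KA sham 7. Leaving out libraries 1, 2 and 3 of KA 3 Class V in turn gave 8, 6 and 7. The calls over all genes also moved, from 1332 with all libraries. They numbered 9 without KI 3 Class V 1, 2 or 3 and 527 without KI 3 Class V 4. Without KI sham 1, 2, 3 and 4 they numbered 1065, 454, 133 and 4297. Without KA sham 2, 3 and 7 they numbered 2445, 838 and 1020. Leaving out KA 3 Class V 1, 2 and 3 in turn gave 898, 854 and 1092. In whole tissue, fewer cells of a type and less RNA per cell cannot be told apart.

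KI sham 3 carried the highest level among all 18 libraries for 41 of the 56 genes (73.2%), while the same library was highest for 4.95% of all genes tested. Its level divided by the median of the other 3 KI shams had a median of 2.78 over the 56 genes, reached 24.6 and exceeded 2 for 36 genes (64.3%). Over all genes 3.99% exceeded 2. KI sham 1 was the library most often highest over all genes tested, for 19.4% of them, and it was highest for 1.79% of the 56. The mean of log2 CPM minus each gene's own mean over all libraries, taken over the 56 genes, was 1.53 in KI sham 3. In KI sham 1, 2 and 4 this score was -0.38, -0.07 and 0.15. It was -0.59, -0.04, -0.58 and -0.57 in the KI 3 Class V libraries, so that the ranges of the 2 groups overlapped through KI 3 Class V 2. In the KA model the score was -0.08, 0.29 and 0.41 in the KA 3 Class V libraries, against a lowest, median and highest value of -0.50, -0.10 and 0.54 in the KA shams.

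**Figure D1:**
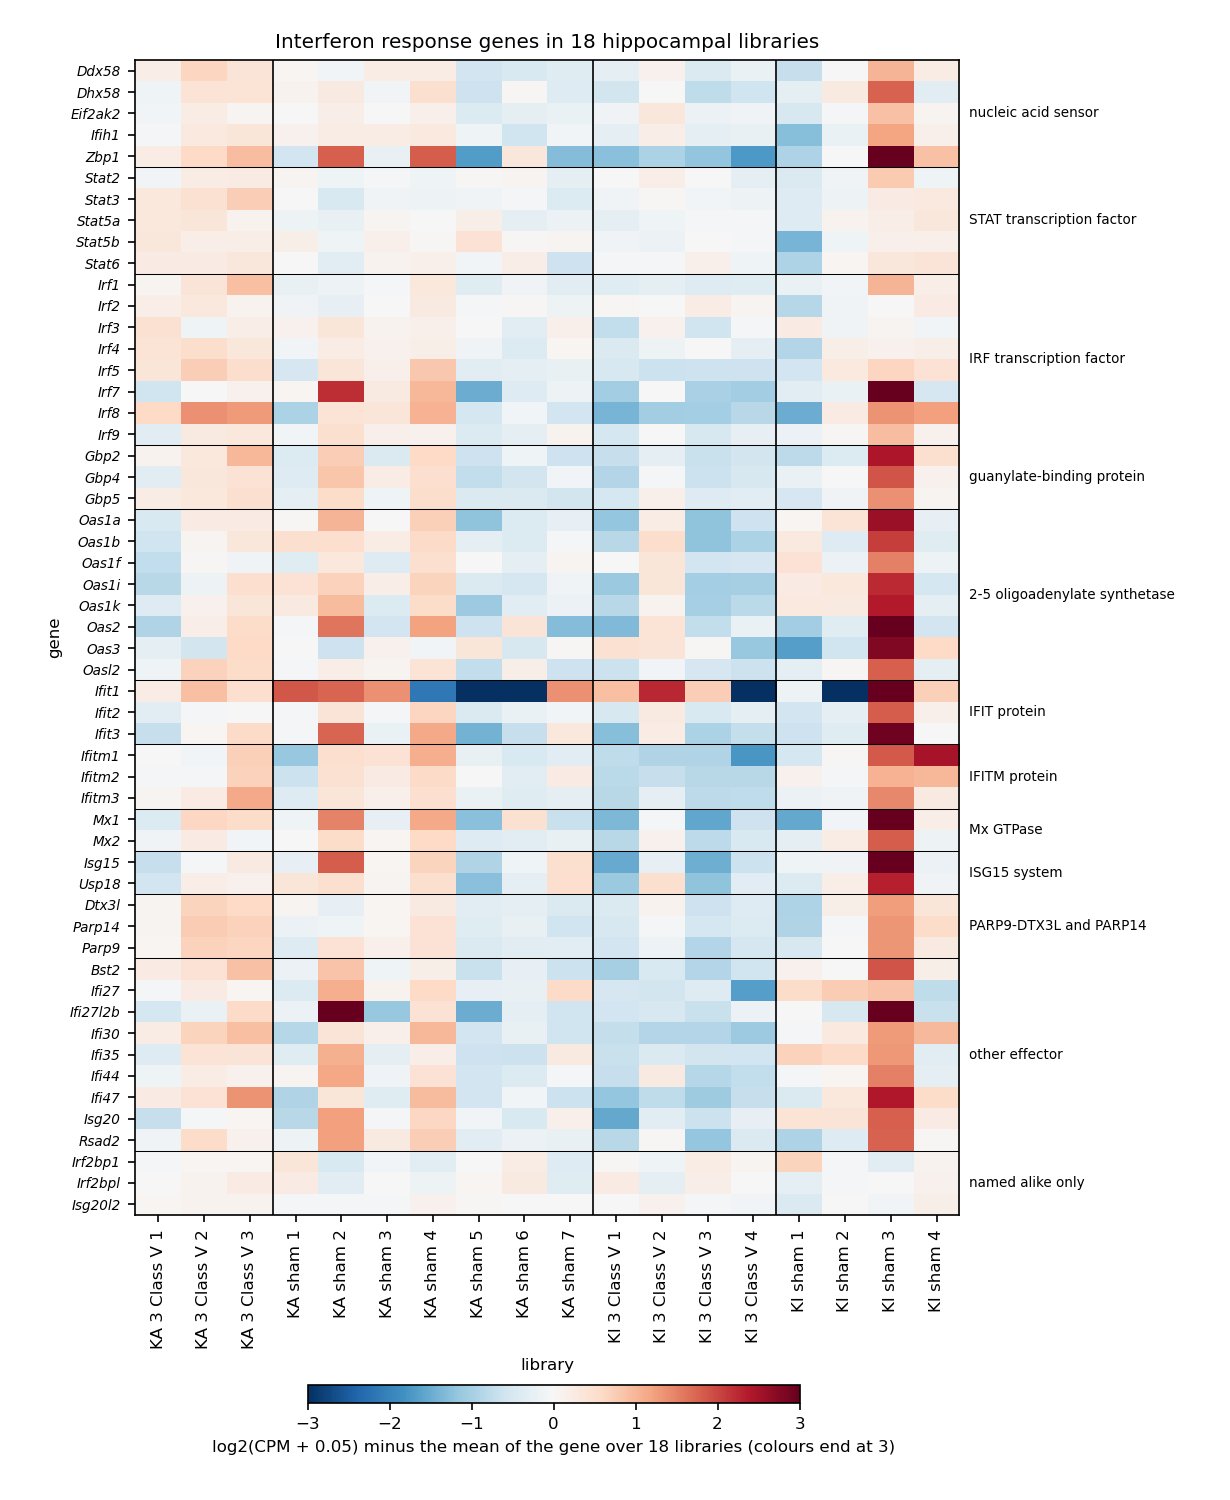
Level of 54 of the 56 genes (down the page, grouped by role) in each of the 18 libraries (across), as log2(CPM + 0.05) minus the mean of the gene, with colours ending at 3 in either direction. KI sham 3 is the darkest red column for most genes, 40 of which peak there, and the 3 genes that are alike in name only stay pale in it.

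Summed levels of cell type markers differed between groups for some cell types and overlapped for others. Of 14 microglia markers tested, 8 were called lower in KI 3 Class V, where 5.25% of all genes were, and 0 passed in KA. For 9 of the 14 the KA change was called above the KI change, beside 3.15% of all genes. Their summed level was 691, 685, 680 and 710 CPM in the KI 3 Class V libraries, against 968, 1308, 2101 and 1677 CPM in the KI shams. In KA it was 1343, 1732 and 1848 CPM for KA 3 Class V, against a lowest, median and highest value of 713, 895 and 1771 CPM in the KA shams. KI sham 3 was the highest library for this sum as well. None of the 14 was at 0 in any group. Of 11 leukocyte markers tested, 3 were called lower in KI, beside the same 5.25% of all genes. The sum over 13 was 21.2 to 25.3 CPM in KI 3 Class V, against 32.9, 44.7, 114 and 75.4 CPM in the KI shams. In KA it was 63.1 to 75.1 CPM in KA 3 Class V, against 20.6 to 59.8 CPM in the KA shams; Klrb1 was at 0 in every library but KI sham 2. Without KI sham 3, 1 microglia marker and 0 leukocyte markers were called in KI, while the median log2 changes moved less, to -0.82 from -1.0 for the microglia markers and to -1.10 from -1.40 for the leukocyte markers. Neuron markers summed to 9456 to 11285 CPM in KI 3 Class V, against 7490 to 8736 CPM in KI sham. Of these 10, 3 were called higher, beside 4.74% of all genes. Oligodendrocyte markers summed to 9927 to 13929 CPM in KI 3 Class V, against 15808 to 21230 CPM in KI sham; 2 of 8 fell, and 2 were also called without KI sham 3. In KA, neuron markers summed to 7482 to 7887 CPM in KA 3 Class V, against 8245 to 10348 CPM in KA sham, with 0 called. Astrocyte markers summed to 13952 to 15743 CPM in KA 3 Class V, against a lowest, median and highest value of 6961, 9528 and 14050.4 CPM in KA sham, and 1 of 10 rose. In KI the astrocyte sums overlapped, at 8592 to 10258 CPM in KI 3 Class V, against 7692 to 11390 CPM in KI sham, and 1 of 10 rose. Endothelial sums overlapped in KI as well, at 376 to 437 CPM in KI 3 Class V, against 346 to 458 CPM in KI sham. Of 9 endothelial markers tested 1 fell, and KI sham 3 had the lowest endothelial sum of the KI shams, 346 CPM. The part of these cells in the changes of the 56 genes was not tested.

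**Figure D2:**
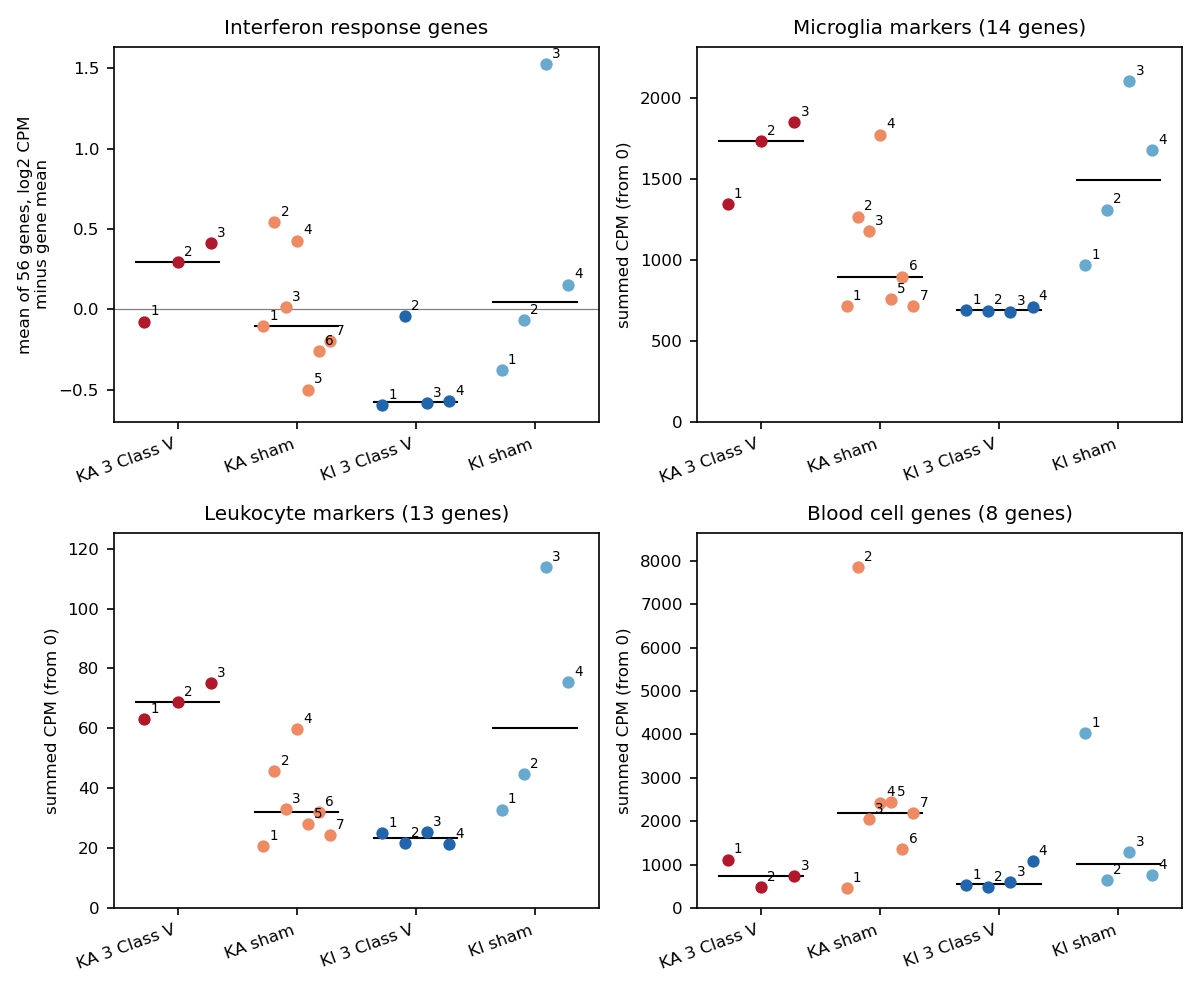
Mean level of the 56 genes (top left, log2 CPM minus the gene's mean) and summed CPM of microglia, leukocyte and blood cell markers (other panels, from 0) in each library; points are numbered by replicate and bars are medians. KI sham 3 stands at 1.53 in the score and highest in the microglia and leukocyte sums, while the 4 KI 3 Class V libraries share microglia sums of 680 to 710 CPM, and KA sham 2 stands at 7856 CPM for blood cell genes.

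The level in KI sham 3 differed with the promoter letters, given here as a description of that library. Among the 21 genes with response element letters its ratio to the other KI shams had a median of 3.36 and exceeded 2 for 18 genes. Among the 20 genes with a window that lacked the letters the median was 1.48 and 6 exceeded 2. The 2 sets also differ in make-up. Those without the letters include the 3 genes alike in name only, with ratios of 0.73 to 1.04. They also include Stat2, Stat3, Stat5a, Stat5b and Stat6 (1.07 to 1.87), and Irf3, Irf4 and Irf5 (1.11, 0.97 and 1.27). Those with the letters include the close copies Oas1a, Oas1b and Oas1i. The part of the letters in these ratios was not tested. Mx1, with a ratio of 12.1, held neither motif in its window. For TTCNNNGAA the medians were 2.75 among the 10 genes with it and 2.12 among the 31 without.

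**Figure D3:**
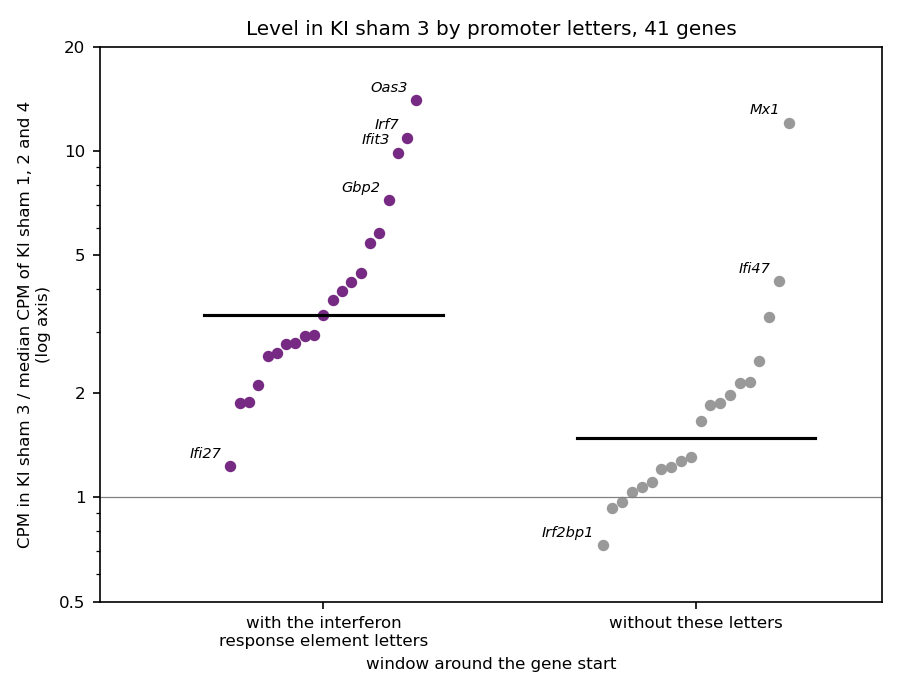
Level in KI sham 3 divided by the median of the other KI shams (log axis) for the 41 genes with a promoter window, split by whether the response element letters occur in it; each point is a gene and each bar a median. The medians are 3.36 for the 21 genes with the letters and 1.48 for the 20 without, with Mx1 high among those without.

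Genes of the interferon pathway upstream of these targets were read from lists of names. Of 10 interferon genes listed, 6 were in the table, 0 of them expressed highly enough to be tested, and their summed level was at most 0.0983 CPM in any library. Ifng, which encodes interferon gamma, and Ifnb1, which encodes interferon beta, were at 0 in all libraries of the KA 3 Class V, KA sham and KI 3 Class V groups. In KI sham their highest values were 0.0234 CPM for Ifng and 0.0246 CPM for Ifnb1. Of 5 receptor genes tested, 2 were called lower in KI 3 Class V and 0 higher, where 5.25% of all genes were called lower and 4.74% higher. Ifngr1, a chain of the interferon gamma receptor, had 54.6, 52.3, 54.7 and 50.7 CPM in KI 3 Class V, against 78.7, 83.2, 102 and 104 CPM in KI sham, a log2 fold change of -0.80 ± 0.18 (edgeR adjusted p = 0.0275). Il10rb, a chain shared by the interferon lambda and interleukin 10 receptors, changed by -0.86 ± 0.24 on the log2 scale (edgeR adjusted p = 0.0383). In KA the changes of Ifngr1 and Il10rb were 0.49 ± 0.17 and 0.63 ± 0.22, and 0 of the 5 receptor genes passed the test there.

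Among 13 JAK kinases and signalling brakes tested, 1 fell and 1 rose in KI 3 Class V, where 5.25% of all genes fell and 4.74% rose. In KA 0 of the 13 passed. Ptpn6, a phosphatase of blood-derived and microglial cells that damps cytokine signals, fell, with a change of -1.5 ± 0.39 on the log2 scale (edgeR adjusted p = 0.0333). Jak1, the kinase shared by all interferon receptors, rose by 0.80 ± 0.23 (edgeR adjusted p = 0.0436). Socs3, a feedback inhibitor, had a log2 change of 1.2 ± 0.50 in KA, which missed the threshold (edgeR adjusted p = 0.392), and Ptpn6 had 0.82 ± 0.36 (edgeR adjusted p = 0.426). Of 11 other nucleic acid sensors and adaptors, only Sting1, the adaptor for cytosolic DNA, was called in KI; it fell, with a log2 change of -0.97 ± 0.23 (edgeR adjusted p = 0.0288). Adar, an RNA-editing enzyme, was next with 0.73 ± 0.25 (edgeR adjusted p = 0.0609). In KA, Sting1 and Tlr3, an endosomal RNA sensor, had 0.78 ± 0.21 and 0.90 ± 0.31, and 0 of the 11 passed the test. Without KI sham 3, 0 genes of the receptor, kinase and sensor lists were called, and the log2 changes of those called with all libraries were then -0.74 for Ifngr1, -0.69 for Il10rb, -1.15 for Ptpn6, 0.80 for Jak1 and -0.82 for Sting1.

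A further 26 interferon-stimulated genes lay outside the symbol rule. Where 5.25% of all genes were called lower in KI 3 Class V and 4.74% higher, 8 of the 26 were called lower and 0 higher. They were Psmb8, Psmb9 and Tap1, which make and carry peptides for presentation, Ciita, the switch for class II antigen presentation genes, Uba7, which activates ISG15, and Lgals3bp, Phf11 and Shisa5, with log2 changes between -2.59 for Phf11 and -0.41 for Shisa5. Without KI sham 3 the change of Phf11 was -0.87. Psmb8 had 8.57, 9.79, 8.98 and 9.99 CPM in KI 3 Class V, against 18.1, 18.1, 43.9 and 18.1 CPM in KI sham. All 4 KI 3 Class V values lay below the 4 shams, and the log2 fold change was -1.4 ± 0.33 (edgeR adjusted p = 0.0284) and -0.96 without KI sham 3. In KA 1 of the 26 rose, Ciita, with 2.09, 3.72 and 3.74 CPM in KA 3 Class V, against a lowest, median and highest value of 0.466, 0.528 and 1.0 CPM in KA sham, a log2 fold change of 2.21 ± 0.37 (edgeR adjusted p = 0.0139). Over all genes tested, 0.172% rose in KA. Psmb8 followed with 0.67 ± 0.31 (edgeR adjusted p = 0.477). Without KI sham 3, 0 of the 26 were called in KI, with a median log2 change of -0.45 compared with -1.06 with it.

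Of the 5 sensors among the 56 genes, all were highest in KI sham 3. All 5 had negative KI log2 changes, from -3.1 to -0.19, and 1 was called lower in KI 3 Class V. Zbp1, which binds nucleic acid in the Z form and can start cell death, had 0.378, 0.476, 0.394 and 0.26 CPM in KI 3 Class V, against 0.484, 0.956, 9.63 and 1.83 CPM in KI sham. Each KI 3 Class V value lay under each sham, though by little for KI sham 1. The log2 fold change was -3.1 ± 0.91 (edgeR adjusted p = 0.0442), and -1.55 without KI sham 3 (edgeR adjusted p = 0.184). In KA, Zbp1 had 1.13, 1.5 and 1.89 CPM in KA 3 Class V, against a lowest, median and highest value of 0.267, 0.82 and 3.5 CPM in KA sham, with both groups overlapping. Eif2ak2, the kinase PKR that halts translation on double-stranded RNA, had 28.6, 39.1, 27.2 and 28.9 CPM in KI 3 Class V, against 22.2, 29.9, 56.6 and 32.7 CPM in KI sham. Its groups overlapped (log2 fold change -0.19 ± 0.22, edgeR adjusted p = 0.529, and 0.13 without KI sham 3), and in KA it had 29.1, 36.1 and 32.9 CPM in KA 3 Class V, against a lowest, median and highest value of 23.2, 30.4 and 35.3 CPM in KA sham. Ddx58, the sensor RIG-I, Ifih1, the sensor MDA5, and Dhx58, their regulator LGP2, had KI sham 3 ratios of 2.03, 2.61 and 4.1.

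The 6 STAT genes gave 0 calls in KI, with a median log2 change of -0.12. Stat2, which carries the signal of type I interferons, was highest in KI sham 3, with a ratio of 1.87. In KA all 6 changes were positive, from 0.13 to 0.68, and none was called. Stat3, which serves mainly interleukin 6 type cytokines, had 94.3, 103 and 125 CPM in KA 3 Class V, against a lowest, median and highest value of 55.1, 70.3 and 76.3 CPM in KA sham. All 3 KA 3 Class V libraries lay above every sham, and the log2 change of 0.68 ± 0.14 came just short of the threshold (edgeR adjusted p = 0.0553). With DESeq2 Stat3 was called. In KI, Stat3 had 70, 77.5, 70.9 and 68.1 CPM in KI 3 Class V, against 58, 67.8, 88.8 and 92.8 CPM in KI sham. Its KI groups overlapped (log2 fold change -0.10 ± 0.15, edgeR adjusted p = 0.622).

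The 9 numbered IRF genes, transcription factors of the response, differed widely among themselves, with KI sham 3 ratios of up to 10.9 and 2 calls in KI. Irf7, which amplifies interferon production, had 9.35, 19, 9.71 and 9.28 CPM in KI 3 Class V, against 15.1, 16.9, 165 and 13.7 CPM in KI sham. KI sham 3 stood at 10.9 times the median of the other KI shams, and without it the log2 change was -0.37, compared with -2.16 ± 0.80 with it (edgeR adjusted p = 0.0764). In KA, Irf7 had 12.7, 19.2 and 21 CPM in KA 3 Class V, against a lowest, median and highest value of 6.89, 20.1 and 89.4 CPM in KA sham, and the highest sham, KA sham 2, lay above all 3 KA 3 Class V libraries. Irf8, a factor that microglia and other myeloid cells depend on, had 6.36, 8.16, 8.22 and 9.45 CPM in KI 3 Class V, against 5.98, 20.1, 43.2 and 39.3 CPM in KI sham. The 4 KI 3 Class V values sat within a narrow band and overlapped only KI sham 1. The log2 change of Irf8 was -1.76 ± 0.48 (edgeR adjusted p = 0.0381), and it was still -1.43 without KI sham 3 (edgeR adjusted p = 0.0916). In KA, Irf8 had 25.7, 43.8 and 41.1 CPM in KA 3 Class V, against a lowest, median and highest value of 8.7, 15.8 and 34.7 CPM in KA sham. KA 3 Class V 1 fell inside the sham range and the other 2 lay above it, with a log2 change of 1.04 ± 0.44 that missed the threshold (edgeR adjusted p = 0.402).

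Irf5, a driver of inflammatory genes in myeloid cells, had 16.1, 14.5, 14.6 and 14.6 CPM in KI 3 Class V, against 15.2, 27.6, 35.2 and 30.3 CPM in KI sham. KI sham 1 fell among the KI 3 Class V values and the other shams lay well above them, with a log2 change of -0.86 ± 0.26 (edgeR adjusted p = 0.0487). That change was -0.71 without KI sham 3 (edgeR adjusted p = 0.114). In KA, Irf5 had 29.2, 37.8 and 32.5 CPM in KA 3 Class V, against a lowest, median and highest value of 15.8, 19.3 and 39.3 CPM in KA sham. These groups overlapped, and the change of 0.50 ± 0.25 missed the threshold (edgeR adjusted p = 0.533). Irf1, which interferon gamma induces, had 9.67, 10.3, 9.6 and 9.66 CPM in KI 3 Class V, against 10.9, 11.8, 25.3 and 14.3 CPM in KI sham. All KI 3 Class V libraries lay below all shams, though the change of -0.67 ± 0.23 missed the threshold (edgeR adjusted p = 0.0633) and was -0.34 without KI sham 3. In KA, Irf1 had 13.3, 16.5 and 23.3 CPM in KA 3 Class V, against a lowest, median and highest value of 9.68, 11.3 and 15.7 CPM in KA sham, overlapping, with a change of 0.61 ± 0.22 (edgeR adjusted p = 0.285). Irf2, Irf3 and Irf4 had KI sham 3 ratios of 1.09, 1.11 and 0.972 and were not called in either model. Irf9, the DNA-binding partner of STAT proteins, had a ratio of 1.85.

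**Figure D4:**
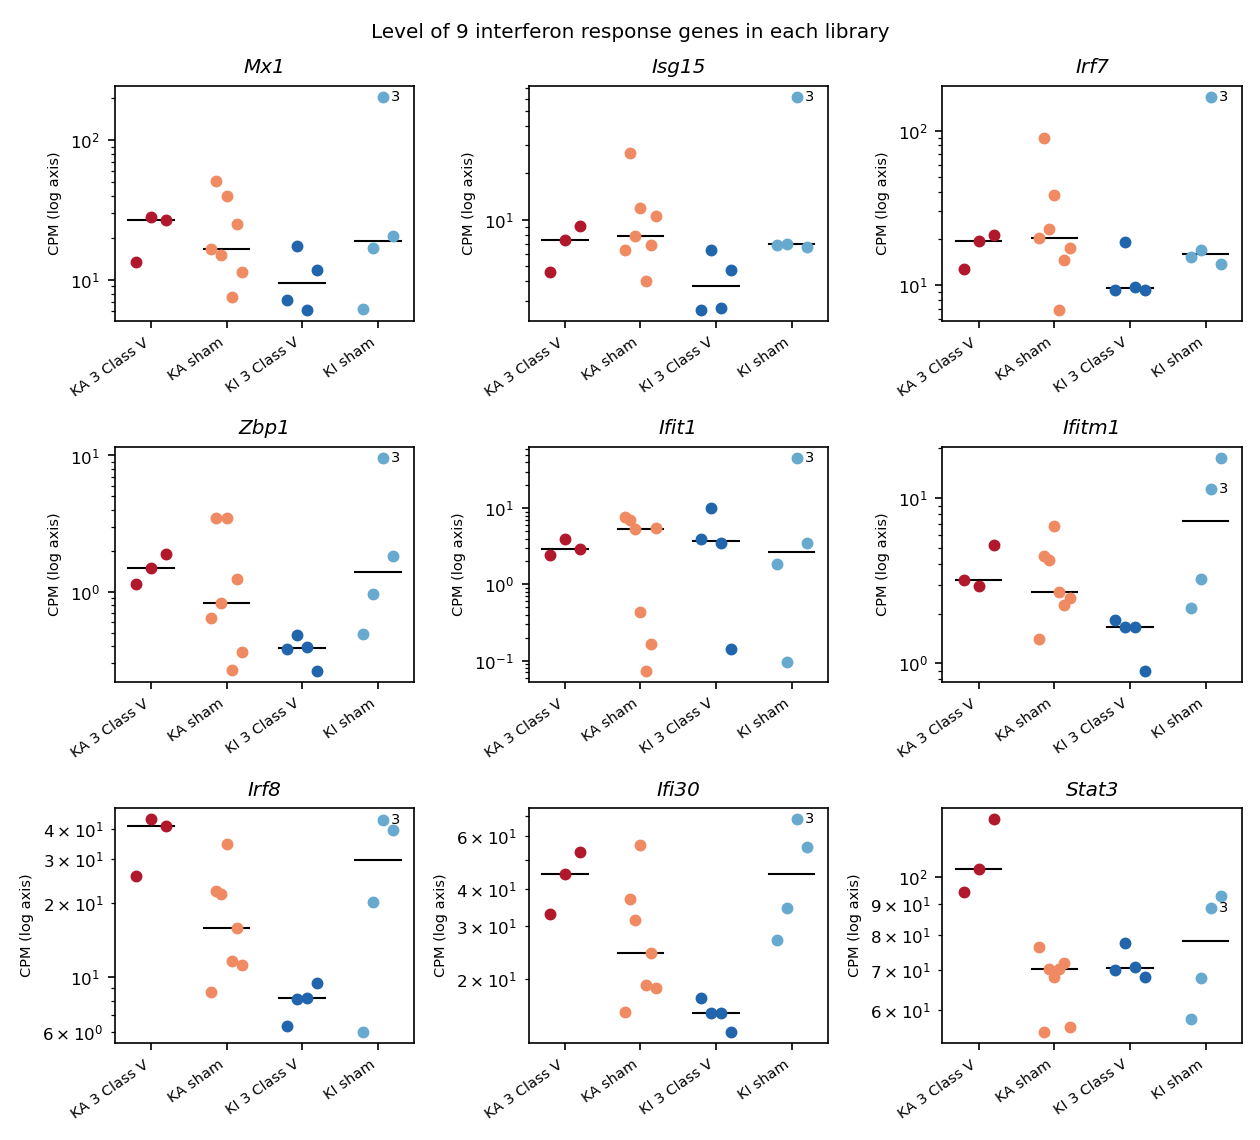
CPM (log axis) of 9 of the genes in each library, by group; each point is a library, each bar the group median, and the number 3 marks KI sham 3. That library is the highest point for Mx1, Isg15, Irf7, Zbp1, Ifit1 and Ifi30, while Ifitm1 peaks in KI sham 4, Irf8 in a KA 3 Class V library and Stat3 in a KA 3 Class V library.

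The 3 guanylate-binding proteins, GTPases that attack the compartments of intracellular microbes, gave no call. Gbp2 had 7.81, 10.4, 8.0 and 8.65 CPM in KI 3 Class V, against 7.37, 9.6, 69.2 and 17.8 CPM in KI sham. KI sham 1 lay below all KI 3 Class V libraries and KI sham 3 far above them, and the log2 change went with that library, at -1.58 ± 0.54 with it (edgeR adjusted p = 0.0621) and -0.41 without it. In KA, Gbp2 had 13.6, 15.9 and 25.4 CPM in KA 3 Class V, against a lowest, median and highest value of 8.2, 9.61 and 21.1 CPM in KA sham, overlapping. Gbp4 and Gbp5 had KI sham 3 ratios of 3.73 and 2.8.

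All 8 of the 2-5 oligoadenylate synthetases, which make the messenger that activates RNase L, were highest in KI sham 3, with ratios of 3.32 to 16.5. None was called in KI, with a median log2 change of -1.46 that was -0.31 without KI sham 3. Oas1a had 2.58, 6.86, 2.53 and 3.8 CPM in KI 3 Class V, against 6.16, 7.81, 35.8 and 4.96 CPM in KI sham. KI 3 Class V 2 lay among the shams, and the log2 change of -1.79 ± 0.58 just missed the threshold (edgeR adjusted p = 0.0549) and was -0.68 without KI sham 3. In KA, Oas1a had 4.26, 6.96 and 7.0 CPM in KA 3 Class V, against a lowest, median and highest value of 2.52, 5.83 and 11.9 CPM in KA sham. Oas1i had 3.21, 9.02, 3.46 and 3.52 CPM in KI 3 Class V, against 8.4, 8.77, 33.3 and 4.89 CPM in KI sham, and in KA 3.94, 6.39 and 10.1 CPM in KA 3 Class V, against a lowest, median and highest value of 4.94, 8.16 and 11.5 CPM in KA sham; both comparisons overlapped. Oas2 and Oas3 had the highest ratios of the family, 16.5 and 14.1, from low levels. The rat Oas1 genes are close copies of each other, and how reads matching several places were counted is not given in the sources used here, so their separate values are uncertain.

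The IFIT proteins, which bind foreign RNA and block its translation, gave 0 calls of 3 in either model. Ifit3 had 1.51, 4.36, 1.91 and 2.24 CPM in KI 3 Class V, against 2.42, 2.87, 28.4 and 3.75 CPM in KI sham. KI sham 3 stood alone and the other 7 KI libraries overlapped, with log2 changes of -1.9 ± 0.77 (edgeR adjusted p = 0.0943) and -0.27 without it. In KA, Ifit3 had 2.29, 3.87 and 5.53 CPM in KA 3 Class V, against a lowest, median and highest value of 1.36, 3.62 and 12.6 CPM in KA sham. Ifit2 had 6.55, 11, 6.56 and 7.42 CPM in KI 3 Class V, against 6.09, 7.56, 32.1 and 10.1 CPM in KI sham, and in KA 7.14, 8.73 and 9.12 CPM in KA 3 Class V, against a lowest, median and highest value of 6.72, 8.71 and 14.3 CPM in KA sham. Neither comparison of Ifit2 separated the groups, and without KI sham 3 its KI change was -0.01. Ifit1 ranged from 3 to 1869 raw counts over the 18 libraries.

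The 3 IFITM proteins, membrane proteins that block entry of enveloped viruses, all fell in KI 3 Class V, with a median log2 change of -1.41 and of -1.23 without KI sham 3. Ifitm2 had 5.26, 5.66, 5.12 and 5.2 CPM in KI 3 Class V, against 10.2, 8.83, 19 and 18.3 CPM in KI sham. All KI 3 Class V libraries lay below all shams within a narrow band, and the log2 change was -1.41 ± 0.28 (edgeR adjusted p = 0.0221) and -1.23 without KI sham 3 (edgeR adjusted p = 0.0516). In KA, Ifitm2 had 8.86, 8.86 and 14.8 CPM in KA 3 Class V, against a lowest, median and highest value of 5.88, 10.9 and 13.7 CPM in KA sham. Ifitm3 had 7.69, 11.3, 7.88 and 8.1 CPM in KI 3 Class V, against 12, 12.7, 37.5 and 16.5 CPM in KI sham, again with no overlap. Its log2 change was -1.17 ± 0.34 (edgeR adjusted p = 0.0418) and -0.66 without KI sham 3, and in KA it had 14.5, 16.2 and 30 CPM in KA 3 Class V, against a lowest, median and highest value of 10.4, 11.9 and 19.4 CPM in KA sham. Ifitm1 had 1.83, 1.65, 1.66 and 0.898 CPM in KI 3 Class V, against 2.18, 3.22, 11.4 and 17.6 CPM in KI sham. Its highest library was KI sham 4, which also held a summed level of 1410.1 CPM of 10 choroid plexus markers, against 117 to 164 CPM in the KI 3 Class V libraries and 114 to 192 CPM in the other 3 KI shams; the part of that tissue in the Ifitm1 value was not tested. The log2 change of Ifitm1 was -2.52 ± 0.58 (edgeR adjusted p = 0.0275) and -2.34 without KI sham 3 (edgeR adjusted p = 0.0635). Without both KI sham 3 and KI sham 4 it was -0.87 (edgeR adjusted p = 0.186). In KA, Ifitm1 had 3.17, 2.95 and 5.23 CPM in KA 3 Class V, against a lowest, median and highest value of 1.41, 2.69 and 6.77 CPM in KA sham. The Ifitm genes are also close copies.

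Mx1 and Mx2, dynamin-like GTPases that trap viral components, were not called in either model. Mx1 had 7.15, 17.4, 6.08 and 11.7 CPM in KI 3 Class V, against 6.19, 17, 205 and 20.8 CPM in KI sham. KI sham 3 stood at 12.1 times the median of the other KI shams, while KI sham 1 was among the lowest of the 8 libraries. The log2 change was -2.56 ± 0.85 (edgeR adjusted p = 0.0581), and -0.47 without KI sham 3. In KA, Mx1 had 13.5, 28.1 and 26.8 CPM in KA 3 Class V, against a lowest, median and highest value of 7.52, 16.6 and 50.7 CPM in KA sham. Mx2 had 26.4, 52, 27.4 and 34.1 CPM in KI 3 Class V, against 38.6, 54.7, 166 and 42.4 CPM in KI sham, and in KA 44.1, 56.4 and 44.7 CPM in KA 3 Class V, against a lowest, median and highest value of 35.8, 47.3 and 71.9 CPM in KA sham. KI 3 Class V 2 lay within the range of the KI shams for both genes.

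Isg15, a ubiquitin-like protein attached to other proteins in the response, had 2.61, 6.36, 2.7 and 4.77 CPM in KI 3 Class V, against 6.85, 6.98, 61.7 and 6.63 CPM in KI sham. No KI 3 Class V library reached a sham, although KI 3 Class V 2 came close. The log2 change was -2.32 ± 0.71 (edgeR adjusted p = 0.0487) and -0.73 without KI sham 3 (edgeR adjusted p = 0.317). In KA, Isg15 had 4.63, 7.37 and 9.09 CPM in KA 3 Class V, against a lowest, median and highest value of 4.0, 7.81 and 26.8 CPM in KA sham, with KA sham 2 the highest. Usp18, which removes ISG15 and damps the receptor, had a KI sham 3 ratio of 5.46 and was not called. Parp9 and Dtx3l, partners in one complex, and Parp14 had ratios of 2.47, 2.12 and 2.56. Parp14 had 11.1, 15.1, 10.8 and 11.7 CPM in KI 3 Class V, against 8.33, 15.3, 39.2 and 22.9 CPM in KI sham, and in KA 16.4, 26.3 and 25.2 CPM in KA 3 Class V, against a lowest, median and highest value of 10.3, 13.9 and 21.1 CPM in KA sham; it was not called in either model, with KA and KI log2 changes of 0.65 ± 0.31 and -0.82 ± 0.33, the KI change being -0.35 without KI sham 3.

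Of the 9 remaining effectors, 6 were called lower in KI 3 Class V, and all 9 had negative KI log2 changes. Bst2, or tetherin, which holds budding virus at the cell surface, had 8.09, 11.8, 8.78 and 10.6 CPM in KI 3 Class V, against 17.7, 16.3, 59.5 and 18.3 CPM in KI sham. Every KI 3 Class V library lay below every sham, with a log2 change of -1.51 ± 0.39 (edgeR adjusted p = 0.0333) and -0.83 without KI sham 3 (edgeR adjusted p = 0.0934). In KA, Bst2 had 19.1, 21.7 and 29.7 CPM in KA 3 Class V, against a lowest, median and highest value of 10.1, 14.2 and 29.3 CPM in KA sham, overlapping. Ifi30, a lysosomal reductase that prepares antigens, had 17.3, 15.4, 15.3 and 13.2 CPM in KI 3 Class V, against 26.8, 34.6, 68.5 and 54.9 CPM in KI sham. The groups were apart, and the log2 change was -1.6 ± 0.36 (edgeR adjusted p = 0.0274) and -1.34 without KI sham 3 (edgeR adjusted p = 0.0647). In KA, Ifi30 had 32.8, 44.7 and 52.9 CPM in KA 3 Class V, against a lowest, median and highest value of 15.4, 24.3 and 56.1 CPM in KA sham. Ifi47, an immunity-related GTPase, had 2.55, 3.36, 2.73 and 3.54 CPM in KI 3 Class V, against 4.25, 7.2, 30.3 and 8.38 CPM in KI sham. Its KI groups did not overlap either, with changes of -2.04 ± 0.52 (edgeR adjusted p = 0.0329) and -1.12 without KI sham 3. In KA, Ifi47 had 6.82, 7.82 and 14.8 CPM in KA 3 Class V, against a lowest, median and highest value of 3.07, 4.43 and 11.1 CPM in KA sham, and KA 3 Class V 3 was above every sham while the other 2 were not.

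Isg20, an exonuclease that degrades RNA, had 0.252, 0.651, 0.507 and 0.685 CPM in KI 3 Class V, against 1.11, 1.08, 3.0 and 0.983 CPM in KI sham, with no overlap at a low level. Its log2 change was -1.55 ± 0.47 (edgeR adjusted p = 0.0462) and -1.0 without KI sham 3, and in KA it had 0.492, 0.804 and 0.859 CPM in KA 3 Class V, against a lowest, median and highest value of 0.442, 0.798 and 1.99 CPM in KA sham. Ifi35, an interferon-induced regulator of the sensors, had 5.86, 6.86, 6.31 and 6.28 CPM in KI 3 Class V, against 15.1, 13.8, 23 and 7.33 CPM in KI sham. KI sham 4 came close to the KI 3 Class V libraries and the other shams did not, with a log2 change of -1.22 ± 0.36 (edgeR adjusted p = 0.0442). That change was -0.94 without KI sham 3 (edgeR adjusted p = 0.113). In KA, Ifi35 had 7.11, 12.3 and 12.3 CPM in KA 3 Class V, against a lowest, median and highest value of 5.96, 7.61 and 19.5 CPM in KA sham. Ifi27 had 143, 139, 156 and 65.3 CPM in KI 3 Class V, against 298, 347, 368 and 120.4 CPM in KI sham, where KI sham 4 lay below 3 of the KI 3 Class V libraries. Its log2 change was -1.17 ± 0.36 (edgeR adjusted p = 0.0487), and it moved little without KI sham 3, at -1.03 (edgeR adjusted p = 0.106). In KA, Ifi27 had 196, 241 and 212 CPM in KA 3 Class V, against a lowest, median and highest value of 153, 220.1 and 432 CPM in KA sham. Ifi27l2b, a close relative, had 4.32, 4.63, 4.03 and 5.67 CPM in KI 3 Class V, against 6.5, 4.62, 71.1 and 4.0 CPM in KI sham. It lay between 4.0 and 6.5 CPM in all KI libraries but KI sham 3, with a log2 change of -2.21 ± 1.0 (edgeR adjusted p = 0.127) and -0.12 without that library. In KA, Ifi27l2b had 4.43, 5.57 and 9.68 CPM in KA 3 Class V, against a lowest, median and highest value of 2.28, 5.23 and 51.2 CPM in KA sham; KA sham 2 held that highest value, 10.8 times the median of the other KA shams. The KA log2 change was -0.80 ± 0.98 (edgeR adjusted p = 0.835) and 0.44 without KA sham 2, so its sign rested on that library.

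Irf2bpl, 1 of the 3 genes alike in name only and not known as an interferon target, had 109.6, 76.5, 107 and 91.9 CPM in KI 3 Class V, against 76.3, 89, 92.5 and 101 CPM in KI sham, and in KA 92.4, 99.4 and 109.9 CPM in KA 3 Class V, against a lowest, median and highest value of 72.2, 93.2 and 112 CPM in KA sham. Its groups overlapped in both models. The KI sham 3 ratios of these 3 genes ran from 0.73 to 1.04, and none was called in KA or KI.

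**Figure D5:**
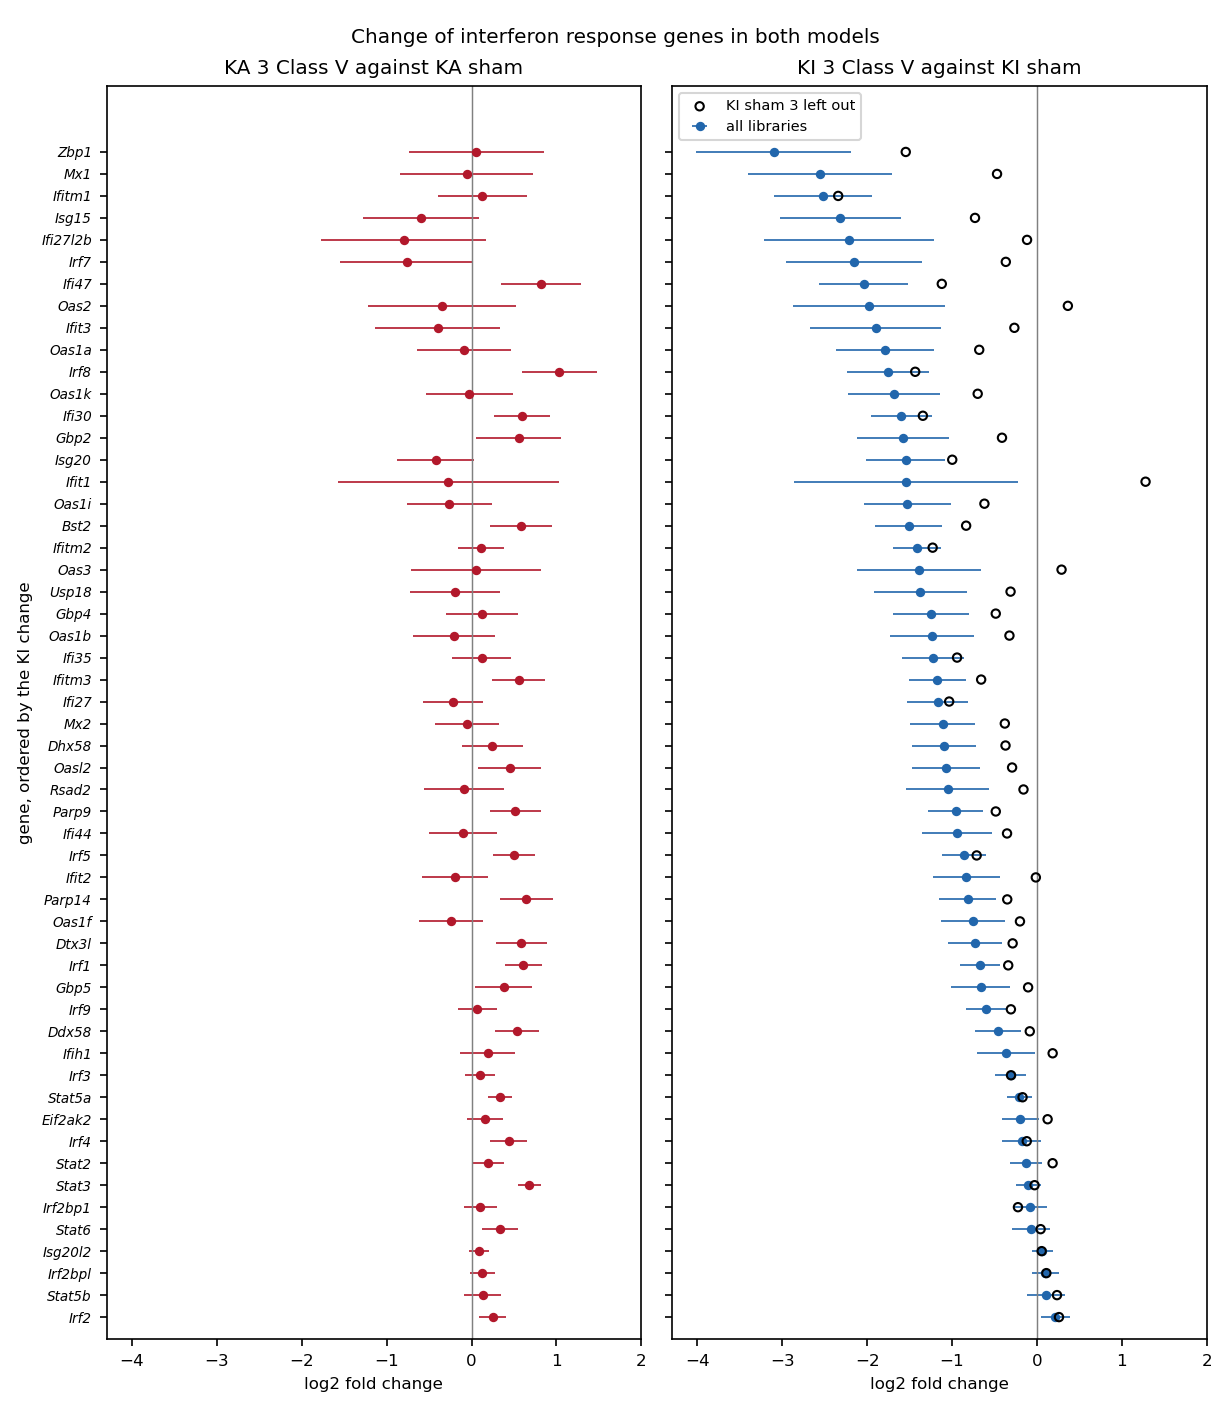
Log2 fold change of 54 of the 56 genes in KA (left) and KI (right), ordered by the KI change; points are estimates and bars 1 standard error with all libraries, and open circles are KI estimates without KI sham 3. KI points lie left of 0 for 50 genes, and the open circles lie closer to 0 for most of them, with a median of -0.32.

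In KA, 0 of 56 genes passed the adjusted threshold of edgeR's test, where 0.172% of all genes were called higher and 0.0% lower. Irf1, Irf8, Stat3 and Stat5a had an unadjusted p under 0.05, all with higher values in KA 3 Class V. In either direction 9.93% of all genes passed that line, and 846 of 13338 passed it with higher values. DESeq2 called 1 of the genes, Stat3, and limma-voom called 3, Irf5, Irf8 and Stat3. The median log2 change was 0.12, beside -0.01 over all genes, with 36 changes positive and 20 negative. For 3 genes, Irf4, Stat3 and Stat6, the lowest KA 3 Class V library exceeded the highest KA sham, and for 0 genes the reverse held, where 2.95% and 2.7% of all genes did so. In KI the corresponding counts were 0 genes above and 11 below, beside 12.1% and 8.07% of all genes. KA sham 2 exceeded 2 times the median of the other KA shams for 18 of the 56 genes (32.1%), against 7.05% of all genes. Among all 18 libraries it was the highest for 1.79% of the 56 genes and 17.3% of all genes. The same library held 7856 summed CPM of 8 blood cell genes, against 477 to 1112 CPM for KA 3 Class V and 457 to 2433 CPM for the other KA shams; Hba1 was at 0 in both KA groups, and the part of blood in its values was not tested.

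The change in KA differed from the change in KI for 9 genes, each with a KA change above the KI change, where 3.15% of all genes were called in that direction and 0.652% in the other. Ifi47 and Irf8 led, with differences of 2.86 ± 0.70 and 2.79 ± 0.65 on the log2 scale (edgeR adjusted p = 0.0314 and 0.0268). Ifi30 and Bst2 followed with 2.19 ± 0.48 and 2.09 ± 0.53 (edgeR adjusted p = 0.0223 and 0.0379). Ifitm3, Ifitm2, Irf5, Irf1 and Stat3 had differences of 1.73 ± 0.46, 1.52 ± 0.38, 1.36 ± 0.36, 1.28 ± 0.32 and 0.78 ± 0.20. Each of the 9 had a positive estimated KA change and a negative estimated KI change, which choosing genes by this difference favours. None of the 9 was called in KA, and Irf1 and Stat3 were not called in KI either. Some of these estimates were smaller than their standard error, as for Ifitm2 in KA (0.11 ± 0.27) and Stat3 in KI (-0.10 ± 0.15). Without KI sham 3, 0 were called, where 1.26% of all genes were called with the KA change higher and 0.278% with it lower. The differences themselves were then 2.46 for Irf8, 1.93 for Ifi30, 1.33 for Ifitm2, 1.2 for Irf5 and 0.71 for Stat3, close to those with all libraries. They were smaller by more for Ifi47, Bst2, Ifitm3 and Irf1, at 1.93, 1.41, 1.21 and 0.94. The count was also 0 without libraries 2 or 3 of KA 3 Class V or libraries 1 or 3 of KI 3 Class V, and 1 without library 2 of KI 3 Class V. It was 2 without KI 3 Class V 4, KA sham 3 or KA sham 5, 3, 4 and 5 with KA sham 7, 6 or 1 left out in that order, and 16 without KI sham 1. The group means behind the KA and KI changes share no library, since each model has its own shams. All 18 libraries went into the same fit, however, so the libraries of each model also bear on the calls in the other.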

How the data were processed

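Polyadenylated RNA of 18 left hippocampus samples was sequenced as single-end reads of 110 bases, per the labels. The values the authors deposited are unnormalized read counts for each gene symbol. The submitters' processing notes name the build rn6 and FastQC, Trimmomatic, HISAT2, featureCounts and DESeq2. The notes carry no versions; annotation, strand setting and treatment of reads with several matches were not given in the sources used here, so close copies may share reads. Sample titles gave the groups and replicate numbers, columns were matched to samples by library name, and 0 were left unmatched. Each of 36 within-group library pairs differed beyond counting error (chi-square over its degrees of freedom, 20.4 to 602.6).

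Tests used edgeR 4.0.16 in R 4.3.3 with TMM factors, filterByExpr (13338 genes), 4 group means and the robust quasi-likelihood F test on all 18 libraries (14 residual degrees of freedom), all two-sided, p-values adjusted by Benjamini-Hochberg over the 13338 genes, threshold 0.05. Standard errors were taken as the size of the log2 fold change over the root of F. CPM used TMM-adjusted library sizes, and the score used log2 CPM with a prior count of 2. The procedure was tested on simulated data. Symbols were matched to RefSeq (55 by symbol, 1, Ddx58, by synonym).

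The genes, the 13 lists and the tests were chosen with earlier results of these data known. Named with values are genes called in any of 3 contrasts, the 8 largest changes in each model with mean log2 CPM of at least 1, and the highest gene of each family. From the pathway lists, called genes and the 2 with the smallest p in each model are named. Values of 2 of the 56 genes are not reported here singly; counts over the 56 include them. Alternatives were DESeq2 1.42.0, limma-voom (limma 3.58.1) with quality weights, RLE factors, no filter, 1 CPM in 7 libraries, each model alone, a replicate block and libraries left out.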

Additional observations from a re-analysis of the deposited data

Results flagged for a closer look

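Among the named genes and the score over the 56 genes, 27 values stood apart from the rest of their group by Dixon's test, out of 84 groups of 4 to 7 libraries tested; chance gives about 1 in 20. That rate holds for unrelated groups; these genes share libraries and were named in part for their large changes, so it is no measure of how unusual 27 is. Of the 27, 14 were in KI sham 3, 6 in KI 3 Class V 2, 5 in KA sham 2, 1 in KA sham 4 and 1 in KI 3 Class V 1.

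In KI 3 Class V 2, above the other KI 3 Class V libraries, stood Eif2ak2 with 39.1 CPM, Ifitm3 with 11.3 CPM, Irf1 with 10.3 CPM, Irf7 with 19 CPM and Oas1i with 9.02 CPM, and the score over the 56 genes with -0.0437. KI 3 Class V 1 stood apart for Irf5, with 16.1 CPM.

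In KI sham 3, above the other KI shams, stood Mx1 with 205 CPM, Mx2 with 166 CPM, Irf7 with 165 CPM, Ifi27l2b with 71.1 CPM, Gbp2 with 69.2 CPM, Isg15 with 61.7 CPM, Bst2 with 59.5 CPM and Oas1a with 35.8 CPM. So did Oas1i with 33.3 CPM, Ifit2 with 32.1 CPM, Ifi47 with 30.3 CPM, Ifit3 with 28.4 CPM, Zbp1 with 9.63 CPM and Isg20 with 3.0 CPM. This library held 2101 summed CPM of microglia markers and 114 of leukocyte markers, the highest of all 18 libraries, and their part in these values was not tested.

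In KA sham 2, above the other KA shams, stood Irf7 with 89.4 CPM, Ifi27l2b with 51.2 CPM, Bst2 with 29.3 CPM, Isg15 with 26.8 CPM and Ifi35 with 19.5 CPM. KA sham 4 stood apart for Irf1, with 15.7 CPM.

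For 9 genes the KA change differed from the KI change in edgeR's test of the difference itself. The differences on the log2 scale were 2.86 for Ifi47, 2.79 for Irf8, 2.19 for Ifi30, 2.09 for Bst2, 1.73 for Ifitm3, 1.52 for Ifitm2, 1.36 for Irf5, 1.28 for Irf1 and 0.78 for Stat3. None passed without KI sham 3, where the differences ran from 0.71 for Stat3 to 2.46 for Irf8.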

How the results depend on the processing

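Of 933 values of 35 named results under the alternatives, 632 kept direction and call, 271 lost the call, 27 gained it and 3 reversed. The reversals were all of Ifi27l2b in KA (-0.80), which was 0.63 with limma-voom, 0.44 without KA sham 2 and 0.43 without KI sham 3 and KA sham 2, a pair chosen after seeing the data; with 1 library left out it ran from -1.20 to 0.44. In KA, 0 of the 56 genes were called, against 1 with DESeq2, 3 with limma-voom, 1 with RLE factors, 1 without KI sham 3 and 4, and 0 to 1 with any library left out. In KI, 13 were called, against 27 with DESeq2, 38 with limma-voom, 3 with each model alone, 3 without KI sham 3 and 4 (Ifi27, Ifi35 and Ifitm2), 3 without KI sham 3 and KA sham 2, and 0 to 29 with 1 library left out. For the difference, 9 were called, against 14 with DESeq2, 34 with limma-voom, 0 without KI sham 3 and 4, 2 without KI sham 3 and KA sham 2, and 0 to 16 with 1 library left out. Over all genes, KA gave 23 calls, against 248 with DESeq2, 725 with limma-voom, 69 without KI sham 3 and 4, and 9 to 110 with 1 library left out. KI gave 1332, against 2864, 7355, 759 with each model alone, 3740 without KI sham 3 and 4, 494 without KI sham 3 and KA sham 2, and 9 to 4297. The median change of the 56 genes was 0.12 in KA (0.06 to 0.23 with 1 library left out). In KI it was -1.08, -0.29 without KI sham 3 and 4, -0.31 without KI sham 3 and KA sham 2, and -1.30 to -0.31 with 1 library left out. The cause of these shifts was not tested.

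Libraries with the same replicate number did not deviate together (correlations of -0.15, -0.09 and 0.01 in KA and of -0.17 to -0.07 in KI). With the replicate number as a block, 0 genes were called in KI and 0 for the difference, and over all genes 3 were called in KA and 0 in KI. The difference could not be fitted with each model alone. Levels under about 1 CPM, as for Isg20, Oas2, Oas3 and, in the KI 3 Class V libraries, Zbp1, rest on few reads.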

Other observations

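Ifit1, described here after its values were seen, was split across libraries in a way that no group label follows. Its raw counts were 98, 211 and 117 in the KA 3 Class V libraries, against 280, 231, 244, 13, 3, 7 and 197 in the KA shams. In the kindling model they were 125, 402, 125 and 6 in the KI 3 Class V libraries, against 54, 3, 1869 and 147 in the KI shams. The 5 libraries under 15 counts were KA sham 4, 5 and 6, KI 3 Class V 4 and KI sham 2, and the other 13 had at least 54. Of these 5, KA sham 5, KA sham 6 and KI sham 2 lay below the median of their group for both Ifit2 and Ifit3, and KA sham 4 and KI 3 Class V 4 lay above it for both.

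Oasl lies outside the symbol rule, which asks for a further letter or digit after Oasl. It had 1.1, 1.18, 0.788 and 0.874 CPM in the KI 3 Class V libraries, against 1.07, 1.47, 10.7 and 1.71 CPM in the KI shams, with KI sham 3 again the highest. Its log2 change was -1.93 ± 0.60 (edgeR adjusted p = 0.0498). Stat4, under the count minimum, had 18 counts in KI sham 3 and at most 9 in any other library.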
